A study of Mus musculus with 4 samples.

Results

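The 31 genes described here are 10 adenylyl cyclases (Adcy1 to Adcy10) and 21 phosphodiesterase genes of the mouse, chosen by name among the 56748 genes counted in single nuclei of the hippocampus. Nuclei came from 8 pools, each made from the hippocampi of 3 male mice. Control-Vehicle and Stress-Vehicle were C57BL/6 mice, bought at 5 to 7 weeks of age and fed AIN-76A chow. Control-PLX5622 and Stress-PLX5622 were the same strain on this chow with PLX5622 (1200 mg/kg), a CSF1R inhibitor that depletes microglia, from 7 days before stress. Con-IL-1R1+/+ and Stress-IL-1R1+/+ were Cre-negative mice of an in-house line. Con-nIL-1R1-/- and Stress-nIL-1R1-/- carried Vglut2-Cre and lacked the interleukin-1 receptor gene Il1r1 in cells of the glutamatergic lineage, so other cells still held the gene. Stress was repeated social defeat (RSD), 2 h with an aggressive CD-1 male on each of 6 nights, while control mice were left undisturbed. Nuclei were collected 14 h after RSD. The comparisons ask how RSD, the PLX5622 diet and the loss of neuronal IL-1R1 bear on the RNA of these enzymes.

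Cyclic AMP is made from ATP by adenylyl cyclases, most of them membrane enzymes under the control of G proteins, calcium or both. Cyclic AMP and cyclic GMP are cleaved by phosphodiesterases, whose families differ in the nucleotide they prefer and in what regulates them. In the hippocampus, cyclic AMP acts through protein kinase A and the factor CREB, and calcium-stimulated cyclases are known for their part in synaptic plasticity and memory.

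Of 57350 deposited nuclei, 56834 had at most 20% of their UMIs (unique transcript counts) from mitochondrial genes and were clustered, with 5858 to 8474 in each pool. Depth differed between pools, with a median of 598 UMIs per nucleus in Control-PLX5622, 628 in Stress-PLX5622, 1326 in Stress-Vehicle and 2563 to 5012 in the other 5 pools. Nuclei were clustered without the 31 genes and clusters were named by marker genes, so that "DG-like" means a cluster with the markers of dentate gyrus granule neurons. Clusters whose markers gave no clear class were left unnamed and entered no level or test. The largest of them had 4023 nuclei, with 1593 in Control-PLX5622, 1361 in Stress-PLX5622 and 40 to 377 in the other pools. Clusters that held under 3% of their class in any pool were set aside, which applied to 3 clusters with CA1 markers. The first held 1021 nuclei in Control-PLX5622 and 1 to 39 in the other pools. Another held 1305 in Stress-PLX5622, 893 in Stress-Vehicle, 197 in Control-PLX5622 and 6 to 88 elsewhere. The last held 13 to 196 per pool. Comparisons in CA1-like nuclei thus rest on unequal parts of the CA1-marked nuclei. Il1r1 in DG-like nuclei was at 61.5 CPM (the gene's UMIs scaled to a total of 1000000 UMIs for that class and pool) in Con-IL-1R1+/+ and at 11.5 CPM in Con-nIL-1R1-/-. After RSD it was at 29.5 CPM in Stress-IL-1R1+/+ and at 8.96 CPM in Stress-nIL-1R1-/-. Medium spiny-like nuclei, of a type that belongs to the striatum, numbered 273 in Stress-IL-1R1+/+ and 0 to 16 in the other pools.

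Levels were compared between the 12 classes that held at least 20 nuclei in at least 4 pools, as medians over those pools. They are descriptions without a test, since the classes were drawn from the same nuclei. Of the 31 genes, 16 had their highest median in 1 of the 7 neuronal classes and 15 in a glial or endothelial class. For 11 genes the pools of the highest class lay wholly above those of the next class, and for 20 the pools overlapped. Of those 11, 4 were highest in neurons and 7 elsewhere. These counts were not made over all genes, so they do not show how the set compares with other genes. When each nucleus was instead classed by its own markers, 20 of the 31 genes kept their highest class, and the levels of 8 moved by more than the SD over pools, most of them in oligodendrocyte-like, endothelial-like and Cajal-Retzius-like nuclei.

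**Figure D1:**
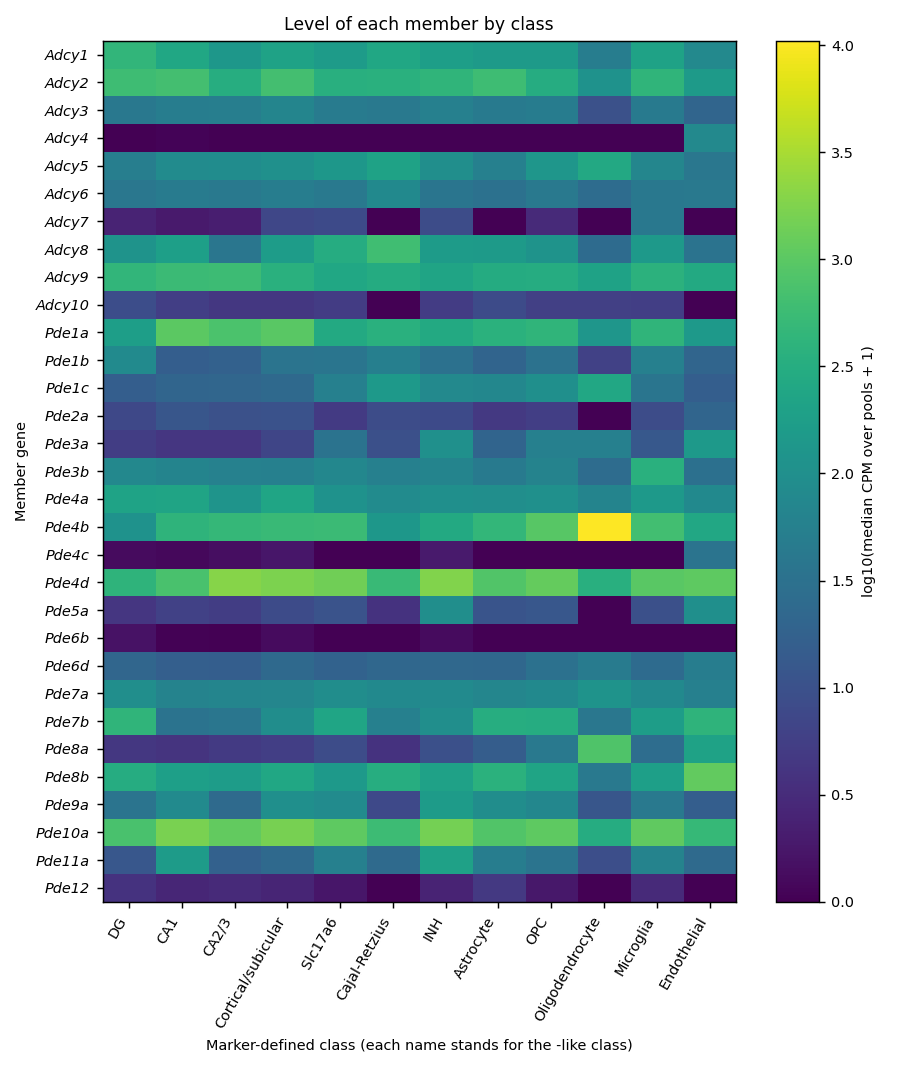
Median level of each of the 31 genes (rows) in each of the 12 classes (columns), as log10 of CPM + 1 over the pools with at least 20 nuclei of the class. Pde4b in oligodendrocyte-like nuclei has the brightest cell, at 10490 CPM, and Adcy4 and Pde4c are near 0 outside the endothelial-like column.

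Among the calcium-stimulated cyclases, Adcy1 was highest in DG-like nuclei, where its CPM ran from 346 to 529 over 8 pools with a median of 440. CA1-like nuclei followed at 249 CPM (166 to 286) and CA2/3-like nuclei stood at 134 CPM (87.9 to 165). No pool of the DG-like class fell within the range of either. Adcy8 was highest in Cajal-Retzius-like nuclei, at 615 CPM (497 to 937) from 288 UMIs in 6 pools, above the Slc17a6 excitatory-like class at 305 CPM (219 to 378). Adcy8 also parted the pyramidal classes, with 184 CPM (138 to 238) in CA1-like against 37.4 CPM (26.2 to 45.8) in CA2/3-like nuclei. The pools of the pyramidal classes did not overlap. With nuclei classed by their own markers, Adcy8 in Cajal-Retzius-like nuclei was at 245 CPM and the Slc17a6 excitatory-like class was highest. Adcy3, the cyclase of olfactory cilia and of neuronal primary cilia, was low, with 66.2 CPM (55.8 to 97.9) in cortical or subicular excitatory-like and 54.5 CPM (46.1 to 74.0) in INH-like nuclei, the inhibitory neurons, down to 8.77 CPM in oligodendrocyte-like nuclei.

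The cyclases stimulated by G protein beta-gamma subunits are Adcy2, Adcy4 and Adcy7. Adcy2 was at 653 CPM (530 to 720) in CA1-like and at 652 CPM (486 to 696) in cortical or subicular excitatory-like nuclei, which do not differ beyond the spread of their pools. Adcy4 was found mostly in endothelial-like nuclei, with 105 of its 134 UMIs in the named classes and a median of 77.8 CPM (32.2 to 157, 7 pools). In CA1-like nuclei, the next class, it reached at most 0.549 CPM. Adcy7, the cyclase of blood-derived and immune cells, was highest in microglia-like nuclei at 39.3 CPM (14.2 to 60.4, 6 pools), above INH-like nuclei at 7.53 CPM (5.03 to 13.7). With nuclei thinned to 500 UMIs the microglia-like median of Adcy7 was 92.2 CPM. The PLX5622 pools held 10 and 13 microglia-like nuclei and are not in that range.

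Adcy5, the main cyclase of the striatum, was led by oligodendrocyte-like nuclei at 264 CPM (164 to 322), which overlapped Cajal-Retzius-like nuclei at 205 CPM (135 to 372). In the medium spiny-like nuclei of Stress-IL-1R1+/+ it stood at 1706 CPM, with an exact Poisson 95% interval of 1619 to 1796 that covers counting error only. Adcy6, the close relative of Adcy5, lay between 25.7 and 79.4 CPM in all 12 classes, and its highest class rests on 27 UMIs. Adcy9, a cyclase with weak response to forskolin, was at 578 CPM (371 to 611) in CA2/3-like and 544 CPM (372 to 596) in CA1-like nuclei. Adcy10, the soluble cyclase that senses bicarbonate, reached a median of only 7.80 CPM (2.54 to 21.1) in DG-like nuclei, within the range of astrocyte-like nuclei at 7.35 CPM (3.41 to 11.2).

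Pde1a, Pde1b and Pde1c encode the calmodulin-stimulated enzymes, and each had its own classes. Pde1a was at 1034 CPM (949 to 1126) in CA1-like and 999 CPM (646 to 1182) in cortical or subicular excitatory-like nuclei, but at 176.5 CPM (148 to 282) in DG-like nuclei. Pde1b showed the reverse of this order within the hippocampus, with 83.7 CPM (66.1 to 98.1) in DG-like against 15.1 CPM in CA1-like nuclei. Among the classes compared, the next for Pde1b was microglia-like at 55.6 CPM (44.4 to 60.4), below every DG-like pool. Medium spiny-like nuclei, which had too few pools to be compared, were higher, at 407 CPM (95% interval 365 to 452) in Stress-IL-1R1+/+. Pde1c was highest in oligodendrocyte-like nuclei at 256 CPM (194 to 410), which overlapped Cajal-Retzius-like nuclei at 141 CPM (62.1 to 229). In cerebellar granule-like nuclei it was at 452 CPM (95% interval 359 to 561) in Stress-nIL-1R1-/-, with 89 nuclei, and at 838 CPM in Con-IL-1R1+/+, with 25.

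Pde2a, which cyclic GMP stimulates, was sparse, at 19.5 CPM (5.81 to 37.3) from 27 UMIs in endothelial-like and 11.0 CPM (9.05 to 18.9) in CA1-like nuclei. Of the enzymes inhibited by cyclic GMP, Pde3a was at 142 CPM (78.9 to 187) in endothelial-like and 104 CPM (59.8 to 170) in INH-like nuclei, against 3.31 CPM (1.08 to 5.66) in CA1-like nuclei. Pde3b, which acts downstream of insulin in fat and liver, was highest in microglia-like nuclei at 359 CPM (169 to 507), 4.75 times the median of DG-like nuclei at 75.5 CPM (37.8 to 79.8). No pool of these classes overlapped, and in thinned nuclei the microglia-like median was 700.1 CPM.

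The Pde4 genes encode the cyclic AMP-specific enzymes blocked by rolipram. Pde4b carried the highest level of any gene and class here, at 10490 CPM in oligodendrocyte-like nuclei, with pools from 8510 to 11930. Oligodendrocyte precursor-like nuclei were next at 933 CPM (869 to 1542), 11.2 times lower by the medians, and DG-like nuclei were last at 113 CPM (86.1 to 157). The medians over pools in the 4 sublibraries, which are technical parts of the same nuclei, were 10282, 9910, 11431 and 10828 CPM. With nuclei classed by their own markers the oligodendrocyte-like median was 2965 CPM, still the highest of the classes. Pde4d was at 1985 CPM (1587 to 2463) in CA2/3-like and 1798 CPM (1497 to 1994) in INH-like nuclei, against 730 CPM (636 to 881) in CA1-like and 417 CPM (362 to 490) in DG-like nuclei. Pde4a differed little between its leading classes, with 233 CPM (173 to 317) in cortical or subicular excitatory-like and 218 CPM (157 to 355) in CA1-like nuclei. Among the classes compared, Pde4c was highest in endothelial-like nuclei, at 34.9 CPM (5.85 to 67.1), with 0.955 CPM in INH-like nuclei. Endothelial-like nuclei held 33 of its 163 UMIs in the named classes, with 15, 1, 0 and 17 in the 4 sublibraries. Vascular leptomeningeal-like nuclei, which had too few pools to be compared, were at 41.7 CPM in Stress-Vehicle and 103 CPM in Stress-PLX5622. Each of these values rests on 3 UMIs. In thinned nuclei the endothelial-like median of Pde4c was 0.

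The promoters of the genes were read for the cAMP response element, the site of CREB, because the genes make and remove its messenger. RefSeq starts on GRCm38.p6 were given for 25 of the 31 genes, in 49 windows of 300 bases. The full element TGACGTCA was in 0 of the 49 windows, against 1.79% of the 32851 windows of all genes. Its arm TGACG, read on both strands, was in 8 of the 49 (16.3%), against 20.8% of all windows. The stretch below, the 250 bases before a start, is shown because Pde4b had the highest level here, and it is 1 of the 4 Pde4b windows given, at chr4:102421305-102421554 on the plus strand, with the arm on the opposite strand in capitals.
Pde4b: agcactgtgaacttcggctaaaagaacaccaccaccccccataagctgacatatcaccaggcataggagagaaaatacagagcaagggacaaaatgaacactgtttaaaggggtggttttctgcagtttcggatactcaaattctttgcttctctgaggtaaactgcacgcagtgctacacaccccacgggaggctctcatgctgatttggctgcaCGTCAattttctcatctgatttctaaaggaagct
A match in such a window is no evidence of a site in use, and the counts do not tell which start a nucleus used.

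Pde5a, the cyclic GMP-specific enzyme blocked by sildenafil, was at 98.8 CPM (46.8 to 164) in endothelial-like and 94.3 CPM (74.0 to 122) in INH-like nuclei, while DG-like (3.28 CPM, 2.05 to 5.27) and CA1-like nuclei (4.99 CPM, 2.91 to 5.98) held little. The endothelial-like cluster also held markers of mural cells, which were not set apart from it. Pde6b, a catalytic subunit of the rod photoreceptor, had 66 UMIs in all named classes and no class above 0.547 CPM. Pde6d, which carries prenylated proteins, lay between 14.8 and 50.4 CPM in all 12 classes. Pde9a, the cyclic GMP-specific enzyme of high affinity, was highest in INH-like nuclei at 162 CPM (120 to 199), above cortical or subicular excitatory-like nuclei at 98.1 CPM (61.8 to 110) in every pool.

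Pde7a and Pde7b encode cyclic AMP-specific enzymes that rolipram does not block. Pde7a ran from 55.5 CPM in endothelial-like to 115 CPM (44.8 to 164) in oligodendrocyte-like nuclei. Pde7b parted the hippocampal neurons, with 425 CPM (278 to 467) in DG-like against 32.8 CPM (23.3 to 43.2) in CA1-like and 37.5 CPM (28.7 to 64.3) in CA2/3-like nuclei. Endothelial-like nuclei reached 418 CPM (333 to 686) and overlapped the DG-like class, and the medium spiny-like nuclei of Stress-IL-1R1+/+ were at 1834 CPM (95% interval 1744 to 1927).

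Pde8a and Pde8b encode cyclic AMP-specific enzymes of high affinity, and neither was led by neurons. Pde8a was at 812 CPM (680 to 985) in oligodendrocyte-like nuclei, 3.88 times the endothelial-like median of 209 CPM (136 to 374), and at 3.48 CPM (2.22 to 11.0) in DG-like nuclei. With nuclei classed by their own markers it was at 242 CPM. Pde8b was at 1120 CPM (719 to 1514) in endothelial-like nuclei, above astrocyte-like nuclei at 367 CPM (265 to 499) in every pool, and at 425 CPM with nuclei classed by their own markers. Vascular leptomeningeal-like nuclei, with at least 20 nuclei in 2 pools only, held 1293 CPM in Stress-Vehicle and 2168 CPM in Stress-PLX5622.

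Pde10a and Pde11a encode enzymes that cleave both nucleotides. Pde10a, known for its level in striatal medium spiny neurons, was at 1607.5 CPM (1558.5 to 1959) in CA1-like and 1550 CPM (1180 to 2548) in cortical or subicular excitatory-like nuclei. DG-like nuclei were at 729 CPM (578 to 905), below every CA1-like pool. The medium spiny-like nuclei of Stress-IL-1R1+/+ had the highest value, 6062 CPM (95% interval 5897 to 6229). Pde11a was found in INH-like nuclei at 199.99 CPM (161 to 223) and in CA1-like nuclei at 163 CPM (119 to 261), against 16.6 CPM (8.47 to 50.6) in CA2/3-like and 11.3 CPM (5.97 to 32.9) in DG-like nuclei. Pde12, which cleaves mitochondrial RNA tails and oligoadenylates rather than cyclic nucleotides, stayed at or below 3.69 CPM in the 12 classes.

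**Figure D2:**
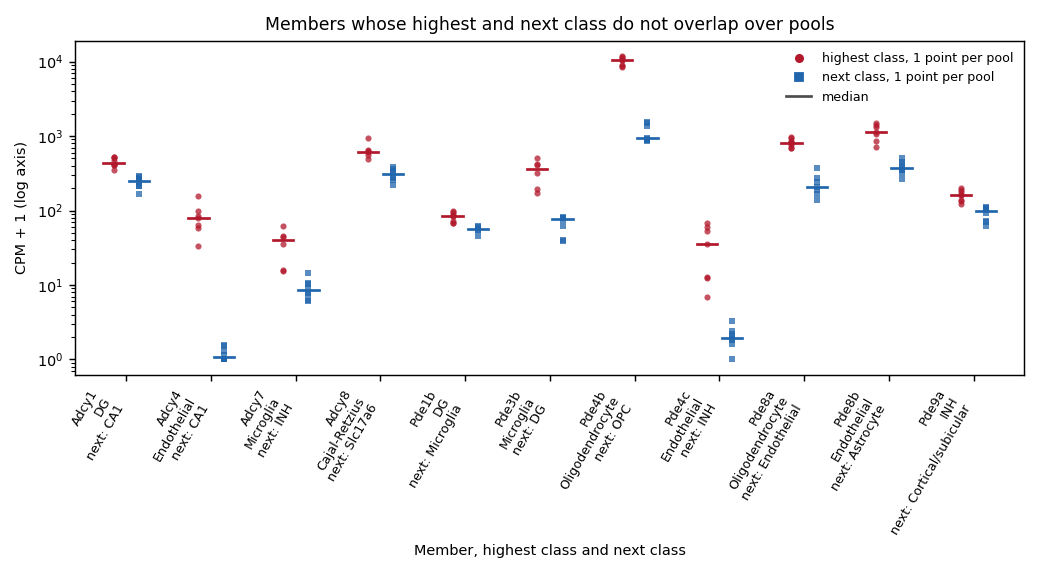
CPM + 1 on a log axis for the 11 genes whose pools in the highest class (circles) lie wholly above those in the next class (squares), with 1 point per pool of at least 20 nuclei and bars at the medians. Classes with too few pools to be compared, such as medium spiny-like nuclei, are left out of this order. Between the lowest pool of the highest class and the highest pool of the next, the ratio is largest for Adcy4 and smallest for Adcy7 (14.2 against 13.7 CPM), followed by Pde9a and Pde1b.

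CPM cannot rank these genes against each other, since RNA of nuclei holds introns and long genes collect more UMIs. The spans of the genes ran from 12.2 kb (Pde12) to 1506 kb (Pde4d), and across the 31 genes Spearman's rho between median CPM and span was 0.523 to 0.788 in the 12 classes, a description over genes that share libraries. Per kb of span, Adcy1 at 3.82 CPM and Adcy9 at 3.26 CPM led the cyclases in DG-like nuclei, while Adcy9 led in CA1-like nuclei at 4.01 CPM and in CA2/3-like nuclei at 4.26 CPM. On the same scale Pde4a led the phosphodiesterases in DG-like nuclei at 4.15 CPM and in CA1-like nuclei at 4.23 CPM, followed by Pde1b at 2.95 CPM in the former and Pde1a at 3.50 CPM in the latter. In CA2/3-like nuclei Pde1a led at 2.59 CPM per kb and in INH-like nuclei Pde10a at 3.30 CPM per kb. Pde4b in oligodendrocyte-like nuclei kept the highest level per kb, 20.1 CPM, with Pde8a next in that class at 6.70 CPM per kb. The long Pde4d gene (GRCm39, chromosome 13, 108586482 to 110092497, plus strand) was not among the leading 3 in any class on this scale.

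For the effect of stress, the 4 RSD pools were set against their 4 control pools, with diet or genotype as a block, in each of the 9 classes with at least 20 nuclei in every pool. UMIs summed per class and pool entered edgeR's quasi-likelihood test, with Benjamini-Hochberg adjustment over all genes of a class and a call at an adjusted p under 0.05. Of the 31 genes, 28 passed the filter on low counts in at least 1 class, 16 of them in all 9, while Adcy4, Pde4c and Pde6b passed in none. This gave 219 pairs of gene and class. After RSD 2 of the 219 were called, against 0.725% of the 83895 pairs of all genes and classes. The genes were Pde7b, which rose, and Pde11a, which fell, both in cortical or subicular excitatory-like nuclei. At an unadjusted p under 0.05 there were 37 of the 219 (16.9%), against 11.6% of all pairs. DESeq2 called 0 of 255 pairs, against 560 of the 142361 pairs of all genes. It gave 20 of the 255 with an unadjusted p under 0.05. In the hippocampal neuron classes the median log2 fold change of the genes was -0.07 in DG-like, -0.06 in CA1-like, -0.14 in CA2/3-like and 0.03 in INH-like nuclei, with medians of all genes within 0.01 of 0.

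**Figure D3:**
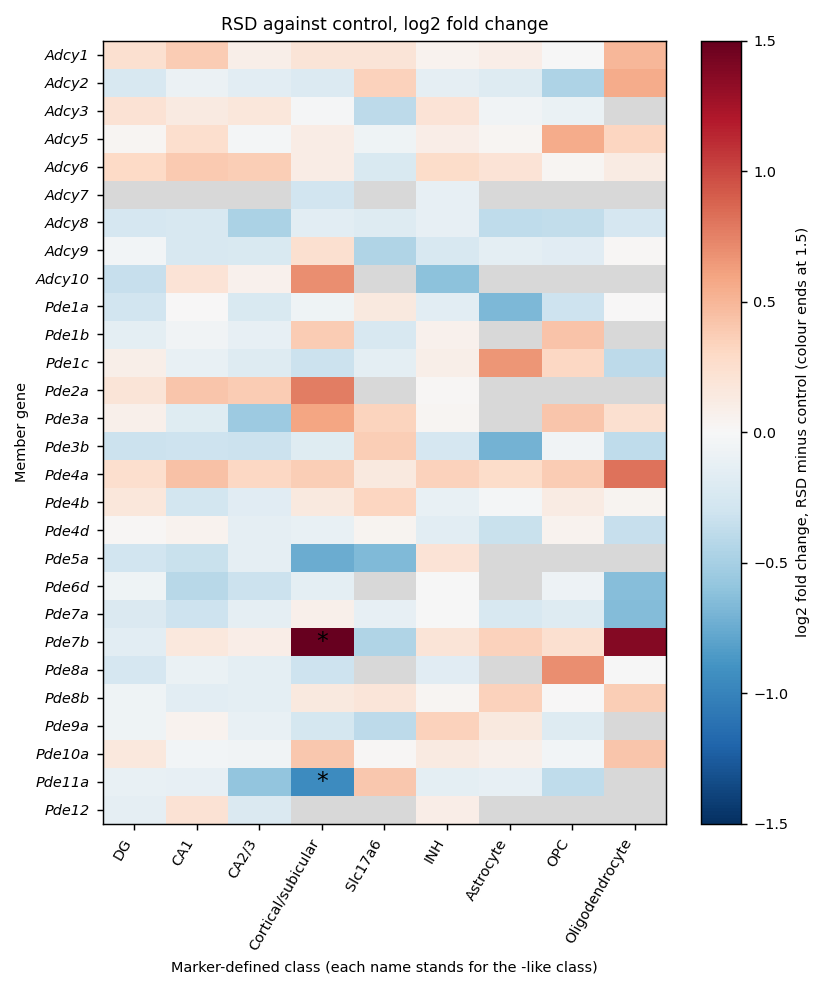
Fitted log2 fold change of RSD against control for the 28 genes tested (rows) in the 9 classes tested (columns), with red for higher after RSD, grey for not tested and asterisks for an adjusted p under 0.05. The asterisks mark Pde7b and Pde11a in cortical or subicular excitatory-like nuclei.

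Pde7b in cortical or subicular excitatory-like nuclei rose 2.81-fold after RSD (log2 fold change 1.49, SE 0.27, adjusted p = 0.00733). The share of genes called higher in this class was 1.95%. Its CPM was 104, 80.5, 73.6 and 60.7 in Control-Vehicle, Control-PLX5622, Con-IL-1R1+/+ and Con-nIL-1R1-/-. In the RSD pools it was 477, 61.4, 227 and 180 in the same order. It was thus higher in 3 of the 4 pairs, and the Stress-PLX5622 pool lay within the control pools, with a log2 ratio of -0.39 to its control (95% counting interval -1.06 to 0.27). The class is made of 3 clusters whose shares moved with RSD. The cluster led by Igfn1 held 63.5%, 49.4% and 42.2% of the class in Stress-Vehicle, Stress-IL-1R1+/+ and Stress-nIL-1R1-/- and 10.4% to 16.5% in the other 5 pools. This cluster had the most Pde7b, and within it the CPM was 322, 103, 203 and 113 in the control pools and 651, 129, 354 and 304 in the RSD pools. The PLX5622 values there rest on only 13 UMIs in the control and 11 in the RSD pool. In that cluster alone the log2 fold change was 1.01 (SE 0.20, adjusted p = 0.00809), and in the other 2 clusters together 0.41 (SE 0.21, adjusted p = 0.414). The class's own summed markers also moved, from 6293 to 8266 CPM in the control pools to 3353, 4506 and 4696 CPM in the 3 RSD pools with a large Igfn1-led cluster, and 6038 CPM in Stress-PLX5622. The summed markers of Cajal-Retzius cells in this class were at 363 to 508 CPM in the control pools, 1062.5, 1051 and 1035.5 CPM in the same 3 RSD pools, and 337 CPM in Stress-PLX5622, with 1 of the 6 markers at 0. How far the change in makeup or in these markers bears on Pde7b was not tested beyond these values, and cells that entered the dissection and RNA per cell cannot be told apart.

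**Figure D4:**
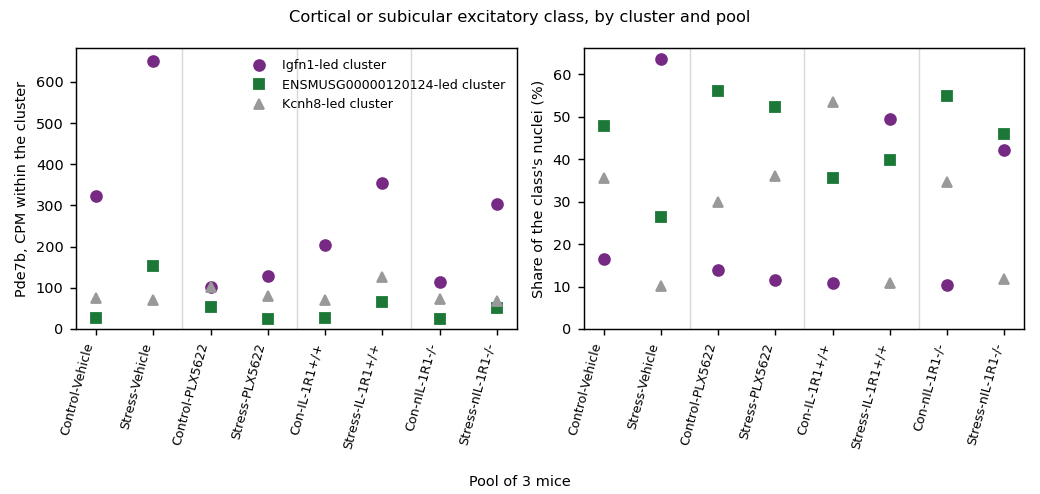
Pde7b CPM within each of the 3 clusters of the cortical or subicular excitatory-like class (left) and the share of the class's nuclei in each cluster (right), in each of the 8 pools. The Igfn1-led cluster (circles) holds over 40% of the class in 3 of the 4 RSD pools. In it the Pde7b CPM is higher in the RSD pool of every pair. The PLX5622 pair there rests on only 13 UMIs in the control and 11 in the RSD pool.

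Pde11a in the same class fell by 0.94 on the log2 scale (SE 0.20, adjusted p = 0.0165), where 1.74% of genes were called lower. Its CPM was 34.9, 35.0, 20.5 and 24.2 in the control pools in the order above, and 16.0, 33.2, 9.92 and 10.6 in the RSD pools. It was lower in the RSD pool of all 4 pairs, by 0.08 on the log2 scale in the PLX5622 pair and by 1.04 to 1.19 in the others. The level is low, with 20 to 84 UMIs per pool. In the Igfn1-led cluster alone the log2 fold change was -1.91 (SE 0.35, adjusted p = 0.00384), and without it -0.67 (SE 0.26, adjusted p = 0.255). The value in that cluster rests on 27, 11, 8 and 17 UMIs in the control pools and 32, 4, 23 and 27 in the RSD pools.

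Neither call held when a pair other than the PLX5622 pair was left out. With edgeR's test, leaving out the vehicle, the IL-1R1+/+ or the nIL-1R1-/- pair ended each call, with adjusted p from 0.0535 to 0.151 for Pde7b and from 0.107 to 0.177 for Pde11a. Without the PLX5622 pair Pde7b was at 1.85 (adjusted p = 5.23e-06) and Pde11a at -1.08 (adjusted p = 0.00244). DESeq2 gave adjusted p of 0.245 and 0.0560 for Pde7b and Pde11a, and without the block edgeR gave 0.0574 and 0.123.

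The pair with the next smallest p was Pde7b in oligodendrocyte-like nuclei (log2 fold change 1.38, SE 0.40, adjusted p = 0.129). Its CPM was 37.2, 0, 22.7 and 24.6 in the control pools and 152, 40.7, 53.2 and 40.1 in the RSD pools, from 0 to 28 UMIs each. In Stress-Vehicle 1 nucleus held 9 of the 17 UMIs, and the 0 in Control-PLX5622 comes from only 20 nuclei. When nuclei were classed by their own markers the log2 fold change was 0.06.

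Pde4a is described with values although no class was called, and it was picked after its values were seen. The fitted log2 fold change was 0.25 (SE 0.11, adjusted p = 0.364) in DG-like, 0.44 (SE 0.12, adjusted p = 0.0915) in CA1-like, 0.31 (SE 0.16, adjusted p = 0.350) in CA2/3-like and 0.34 (SE 0.12, adjusted p = 0.422) in INH-like nuclei. In cortical or subicular excitatory-like nuclei it was 0.37 (SE 0.14, adjusted p = 0.172), and 0.65 (SE 0.15, adjusted p = 0.0424) without the Igfn1-led cluster. Values in the other classes tested were also positive. They ran from 0.14 (SE 0.26, adjusted p = 0.995) in Slc17a6 excitatory-like to 0.81 (SE 0.32, adjusted p = 0.526) in oligodendrocyte-like nuclei. The CPM in CA1-like nuclei was 223, 204, 196 and 157 in the control pools and 318, 355, 213 and 227 in the RSD pools, with the lowest RSD pool below the highest control pool. The values of different classes share their pools of mice and are not independent of each other. Adcy8 had negative values in all 9 classes, from -0.48 (SE 0.15, adjusted p = 0.109) in CA2/3-like to -0.13 (SE 0.10, adjusted p = 0.786) in INH-like nuclei. Adcy1 stood at 0.38 (SE 0.11, adjusted p = 0.131) in CA1-like nuclei. In DG-like, cortical or subicular excitatory-like, CA2/3-like and INH-like nuclei Adcy1 was at 0.24, 0.20, 0.09 and 0.05. Its values in the other classes ran from -0.01 in oligodendrocyte precursor-like to 0.50 in oligodendrocyte-like nuclei. Like Pde4a, both Adcy8 and Adcy1 were picked after their values were seen.

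Of 39 other genes of the cyclic AMP and cyclic GMP pathways (kinases, anchoring proteins, G proteins, channels and CREB factors), 3 of 309 pairs (0.971%) were called after RSD, near the 0.725% of all pairs. Hcn2, a channel opened by hyperpolarization and cyclic nucleotides, rose in CA2/3-like nuclei (log2 fold change 0.76, SE 0.16, adjusted p = 0.0335). Rapgef3, an exchange factor that binds cyclic AMP, fell by 1.44 on the log2 scale in cortical or subicular excitatory-like nuclei (SE 0.21, adjusted p = 0.00229). The shares of the clusters in that class moved with RSD, as given above, and the bearing of this on Rapgef3 was not tested. Prkg1, the cyclic GMP-dependent kinase, fell by 0.92 in astrocyte-like nuclei (SE 0.17, adjusted p = 0.00752). For these 3 calls no values by pool and no fits with a pair of pools left out are given here. None of the 39 was called for the diet or the genotype, nor for the difference of the nIL-1R1-/- pair.

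For the diet, the 2 PLX5622 pools were set against the 2 vehicle pools in the same fit. Of the 219 pairs 1 was called, against 0.0238% of all pairs, and 23 (10.5%) had an unadjusted p under 0.05, against 5.32% of all pairs. DESeq2 called 0. The call was Pde10a in oligodendrocyte-like nuclei, which fell by 1.71 on the log2 scale (SE 0.40, adjusted p = 0.0431), where 0.0364% of genes were called lower. Its CPM was 438 in Control-Vehicle and 940 in Stress-Vehicle against 164 in Control-PLX5622 and 244 in Stress-PLX5622. The 4 genotype pools lay between, at 251 to 386 CPM. The PLX5622 pools held 2 and 18 UMIs from 20 and 75 nuclei. In the vehicle pools a single nucleus held 56 of the 153 UMIs of Control-Vehicle, and another 66 of the 105 UMIs of Stress-Vehicle. With nuclei thinned to 500 UMIs the log2 fold change was 0.20 (SE 0.56), and with doublets left out edgeR's adjusted p was 0.104. Leaving out the control or the RSD diet pools leaves 1 pool per diet, with no spread of the diet difference, so those fits cannot test the call.

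The next pairs for the diet were Pde1c in CA1-like nuclei (log2 fold change 1.18, SE 0.30, adjusted p = 0.368) and Pde7b in cortical or subicular excitatory-like nuclei (-1.66, SE 0.42, adjusted p = 0.603). Pde1c was at 37.8 and 34.8 CPM in Control-PLX5622 and Stress-PLX5622, against 19.0 and 12.1 CPM in Control-Vehicle and Stress-Vehicle. Those 2 PLX5622 values were above all other pools, which ran from 12.1 to 20.1 CPM, but they rest on 35 and 19 UMIs. The summed oligodendrocyte markers in CA1-like nuclei were at 290 and 280 CPM in the same 2 pools and at 175 to 233 CPM in the others. Pde1c was highest in oligodendrocyte-like nuclei, and the part of oligodendrocyte RNA in its CA1-like values was not tested. The difference for Pde7b lay in the RSD pools, with 477 CPM in Stress-Vehicle and 61.4 CPM in Stress-PLX5622. Without the control diet pools its log2 fold change was -3.05, and without the RSD diet pools -0.26. Each of these fits leaves 1 pool per diet and so has no spread of the diet difference. In the Igfn1-led cluster alone, with all pools, the log2 fold change was -1.99 (SE 0.33, adjusted p = 0.0148 by edgeR). In DG-like nuclei 9 of 27 genes (33.3%) had an unadjusted p under 0.05 for the diet, against 7.76% of all genes of the class, Pde4b among them at 0.65 (SE 0.18, adjusted p = 0.262). There the shallow cluster of the class held 83.1% and 90.4% of the nuclei in the PLX5622 pools and 36.5% and 66.5% in the vehicle pools. The summed oligodendrocyte markers in DG-like nuclei were at 589 and 526 CPM in Control-PLX5622 and Stress-PLX5622. They were at 444 and 456 CPM in the vehicle pools and at 390 to 471 CPM in the genotype pools. The part of the shallow cluster or of oligodendrocyte RNA in these values was not tested.

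For the genotype, the 2 nIL-1R1-/- pools were set against the 2 IL-1R1+/+ pools. Of the 219 pairs 1 was called, against 0.0596% of all pairs, and 11 (5.02%) had an unadjusted p under 0.05, against 2.93% of all pairs. DESeq2 called the same pair and no other of the set, against 59 of the 142361 pairs of all genes. No gene of the set was called by edgeR in DG-, CA1-, CA2/3- or INH-like nuclei. The call was Pde5a in Slc17a6 excitatory-like nuclei (log2 fold change 4.49, SE 0.55, adjusted p = 0.00193), where 0.788% of genes were called higher. Its CPM was 259 in Con-nIL-1R1-/- and 168 in Stress-nIL-1R1-/-, against 11.6 and 10.8 in Con-IL-1R1+/+ and Stress-IL-1R1+/+ and 0 to 8.73 in the other 4 pools. The nIL-1R1-/- pools held only 20 and 27 nuclei of this class, against 1559 and 65 in the IL-1R1+/+ pools. Of the 41 UMIs in Con-nIL-1R1-/-, 17 lay in 1 nucleus, and of the 15 in Stress-nIL-1R1-/-, 8. Without the control genotype pools the log2 fold change was 3.92, in a fit with 1 pool per genotype and so no spread of the genotype difference. The class is made of 2 clusters, and the one with Ebf2 among its top genes held 88.9% to 96.9% of it in the genotype pools. Within that cluster Pde5a was at 281 and 258 CPM in Con-nIL-1R1-/- and Stress-nIL-1R1-/-, against 11.6 and 13.1 CPM in Con-IL-1R1+/+ and Stress-IL-1R1+/+. Slc17a6 is the gene that drives the Cre of the knockout line, and whether the same kinds of neuron were sampled in both genotypes was not tested.

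**Figure D5:**
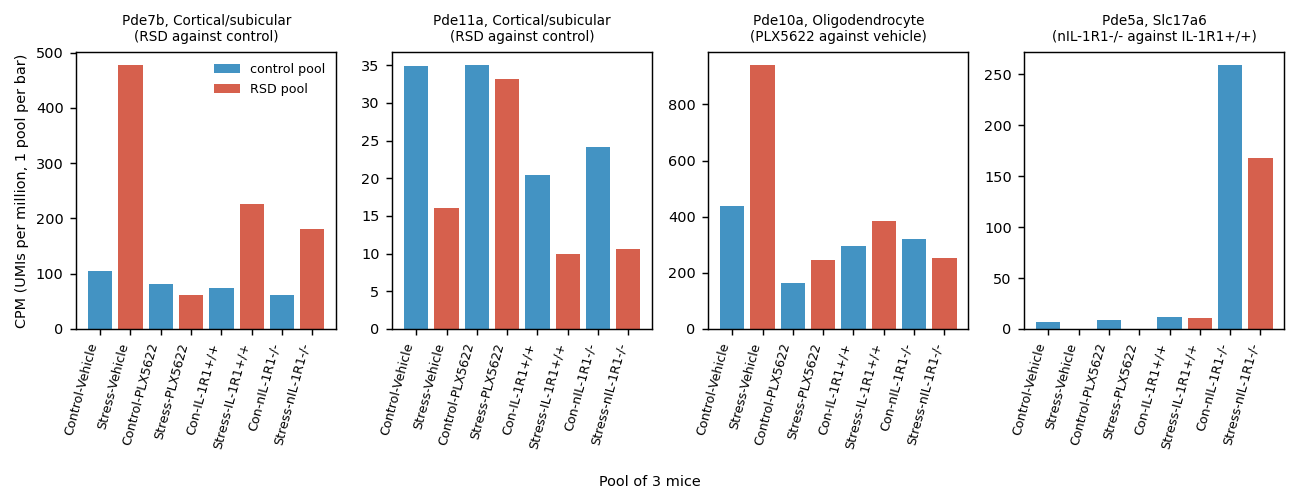
CPM in each of the 8 pools (1 bar each, control pools blue, RSD pools red) for the 4 pairs of gene and class called at an adjusted p under 0.05. For Pde5a both nIL-1R1-/- pools exceed 160 CPM, for Pde10a the Stress-Vehicle pool stands above the rest, and for Pde7b the Stress-PLX5622 pool is not above the control pools.

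The next pairs for the genotype were in the same class, Pde8b (log2 fold change -1.91, SE 0.44, adjusted p = 0.0601) and Pde9a (2.18, SE 0.54, adjusted p = 0.0819). Pde8b was at 63.2 and 55.9 CPM in the control and RSD nIL-1R1-/- pools and at 253 and 219 CPM in the IL-1R1+/+ pools. Pde9a was at 461 and 123 CPM against 50.0 and 108 CPM, and 36 of the 73 UMIs in Con-nIL-1R1-/- lay in 1 nucleus. When the nuclei were classed by their own markers, the log2 fold change of Pde8b was 0.00 (SE 0.30).

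Last, the RSD difference of the nIL-1R1-/- pair was set against that of the other 3 pairs in DG-, CA1-, CA2/3- and INH-like nuclei. No gene was called by edgeR among 110 pairs, nor among all 53445 pairs (0%). Of the 110, 3 (2.73%) had an unadjusted p under 0.05, against 3.99% of all pairs. DESeq2 called 0 of 119, and 0 of the 72508 pairs of all genes. The smallest p values were those of Pde7b in CA2/3-like (-0.81, SE 0.36), Pde1c in DG-like (0.85, SE 0.39) and Adcy5 in CA1-like nuclei (-0.60, SE 0.29), each with an adjusted p of at least 0.976. Pde7b in CA2/3-like nuclei went from 43.3, 36.5, 28.7 and 49.5 CPM in the control pools to 64.3, 38.6, 33.3 and 36.0 CPM in the RSD pools, and only the nIL-1R1-/- pair was lower after RSD. Pde1c in DG-like nuclei went from 11.7 to 18.7 CPM in the nIL-1R1-/- pair and from 15.9 to 12.1 CPM in the IL-1R1+/+ pair. Adcy5 in CA1-like nuclei went from 81.3 to 71.8 CPM in the nIL-1R1-/- pair and from 65.3 to 99.4 CPM in the IL-1R1+/+ pair. By edgeR's test the unadjusted p values of these 3 were 0.0286, 0.0381 and 0.0447, in the order above. None passed the adjustment over all genes of its class, and the term rests on 1 pair of pools.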

How the data were processed

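The 8 pools were barcoded together by split-pool rounds in 4 sublibraries that each hold part of all pools. For each nucleus and gene the authors deposited raw UMI counts, made with the Parse Biosciences pipeline from reads aligned to mm39 (GRCm39). Seurat 4.1.1 is named per the labels for filtering. The table of nuclei, with the deposited UMI count of each, gives the pool. No columns of other samples were left unused. Gene positions come from GENCODE vM39 on the same build.

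A limit of 20% mitochondrial UMIs was applied to each nucleus, and pools shared 0 barcodes. Nuclei were clustered with scanpy 1.11.5 (2000 variable genes, 30 components, resolution 1.5) into 35 clusters. A class name was given where 3 or more markers had 0.2 or more of their level in the leading cluster, the mean score was 1.4 times that of the next class, and no other class had more markers among the 10 top genes. Clusters that held under 3% of a class in a pool were set aside. These rules were set after the cluster tables were seen. Doublets were not removed in the main analysis, since Scrublet marked 0 or 1 nuclei in 7 pools and 1484 in Con-nIL-1R1-/-.

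UMIs were summed per class and pool and tested with edgeR 4.0.16 (TMM, filterByExpr, quasi-likelihood) in R 4.3.3, with DESeq2 1.42.0 as an alternative. Each pool is 1 sample of 3 mice, so p-values measure the spread between pools. The 4 pairs share diet or genotype by design, and deviations of paired pools from their group means correlated with r of 0.163 to 0.228 in DG-like, 0.0412 to 0.189 in cortical or subicular excitatory-like, 0.0121 to 0.133 in oligodendrocyte-like and -0.0663 to 0.27 in Slc17a6 excitatory-like nuclei. On simulated counts for the RSD comparison, 82.9% of 193 genes changed 2-fold were recovered in DG-like nuclei and 56.8% of 190 in oligodendrocyte precursor-like nuclei. Unchanged genes gave 10 and 2 false calls. The simulated pools held no difference of diet, genotype or cluster makeup, and the classes with calls were not simulated. Intervals cover counting error only, and a count of 0 allows up to 3 UMIs. Values are given for called genes and, where fewer than 3 pairs were called in a comparison, for the 3 smallest p values. Pde4a, Adcy8 and Adcy1 after RSD and Pde4b for the diet fall outside this rule. The genes, lists and tests were chosen with earlier results of these data known.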

Additional observations from a re-analysis of the deposited data

Results flagged for a closer look

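Of 22 sets of 4 control or 4 RSD pools for the genes named above, 5 held a pool far from the others by Dixon's ratio. Chance flags about 1 in 20 sets chosen without regard to their values, a rate that does not apply here, since these genes were named for their small p values. In 3 of the 5 the pool that stood apart was the only nIL-1R1-/- pool of its set, so that they restate the genotype difference. The Con-nIL-1R1-/- pool stood apart for Pde5a (259 CPM against 6.51 to 11.6) and Pde9a (461 CPM against 50.0 to 86.6) in Slc17a6 excitatory-like nuclei, and Stress-nIL-1R1-/- for Pde5a there (168 CPM against 0 to 10.8). The Stress-Vehicle pool stood apart for Pde7b in oligodendrocyte-like nuclei (152 CPM against 40.1 to 53.2) and in CA2/3-like nuclei (64.3 CPM against 33.3 to 38.6).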

How the results depend on the processing

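Each condition is 1 pool, both PLX5622 pools are shallow, and oligodendrocyte-like and Slc17a6 excitatory-like nuclei number as few as 20 in a pool, which limits what could be called. Of 131 refits of the named pairs of gene and class, 103 kept direction and side of the threshold, 20 lost the call, 6 gained it and 2 reversed. The 103 are no measure of stability. Refits of the diet or genotype without the pools of 1 stress level set 1 pool against 1 pool. A setting that put the set-aside clusters back changes only CA1-like nuclei and repeats the main fit in every other class. Pairs not called in the main fit also had no call to lose. The reversals were Pde10a in oligodendrocyte-like nuclei for the diet (0.20 with nuclei thinned to 500 UMIs) and Pde8b in Slc17a6 excitatory-like nuclei for the genotype (0.00 with nuclei classed by own markers).

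The pairs of gene and class called after RSD were 2, against 0 with DESeq2, 0 without the replicate block and 1 with thinned nuclei (Pde7b). They were 4 with nuclei classed by own markers and 0 to 5 on leaving out a pair of pools. Without the Igfn1-led cluster 1 was called, which was Pde4a and neither Pde7b nor Pde11a. For the diet the calls were 1, against 0 with DESeq2, thinned nuclei, doublets left out, a mitochondrial limit of 5% or own markers. With no filter they were 2, Pde2a and Pde7b, without Pde10a. With the Igfn1-led cluster alone they were 2, Pde7b and Pde10a, whose own class that setting leaves unchanged. Leaving out the diet pools of 1 stress level leaves 1 pool per diet, so calls there are not counted. For the genotype they were 1, against 3 with no filter and 0 with thinned nuclei or own markers. Leaving out the genotype pools of 1 stress level likewise leaves 1 pool per genotype. Pde5a could not be fitted in thinned nuclei or under own markers, nor Pde11a in thinned nuclei. The highest class was kept by 20 of 31 genes under own markers. Shares of all genes called under each setting are not given here, so the counts of calls do not show how other genes moved. The cause of these changes was not tested. The alternatives on clusters were chosen after seeing the data.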
